A study of Arabidopsis thaliana with 18 samples.

Results

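The plastid genome transcripts described here are the 87 genes whose identifiers begin with ATCG, the prefix of the chloroplast chromosome of Arabidopsis thaliana, among 24951 genes listed in any library. The 18 libraries were made from polyA RNA of whole wild type seedlings. All seedlings had grown in the dark for 7 days and were then given light for 0, 1, 2, 4, 8 or 12 hours, with 3 libraries at each time. Library depth was 20072467 to 22760811 expected counts, the estimated number of reads assigned to genes. The labels do not say whether the 3 libraries of a time came from separate cultures, so p-values measure the spread between these libraries. The set had no seedlings left in darkness over the same hours, so hours of light cannot be told apart from age and time of day.

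The plastid genome encodes core subunits of both photosystems, the cytochrome b6f complex, the ATP synthase, the NADH dehydrogenase-like complex and the large subunit of Rubisco, together with part of the plastid ribosome and RNA polymerase. Its genes are read by a plastid-encoded polymerase, which needs nuclear sigma factors and associated proteins, and by phage-type polymerases made in the nucleus. Plastid mRNA mostly lacks long polyA tails, and in plastids a polyA tail marks RNA for decay. A polyA library therefore holds only a small part of the plastid RNA, and whether the levels given here follow total plastid RNA was not tested. Seedlings lose the etioplast state in light and build the photosynthetic membrane.

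Gene names are written below in the lower case usual for plastid genes. The deposited tables give them in capitals, with PB for atpB, PCLPP for clpP and PSBG for ndhK. The genes were grouped by the first 3 letters of the deposited symbol into psa (photosystem I, 5 genes), psb (photosystem II, 15), pet (cytochrome b6f, 4), atp (ATP synthase, 5), ndh (11), rpl and rps (ribosomal proteins of the large and small subunit, 11 and 15) and rpo (RNA polymerase, 4), with 17 others. By this prefix atpB, psbZ (deposited as YCF9), petN (YCF6) and petL (ORF31) stand among the others, and ndhK among the psb genes. Of the 87 positions, 80 were the same as in the RefSeq annotation of TAIR10.1, and the sequences below are RefSeq's.

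Several plastid genes lie so close together that reads can belong to more than 1 of them. The first 3 sequences are shown because the values of the genes on either side are read beside each other below. The psbD coding region runs into psbC over 53 bases, in capitals, within ChrC:33710-33782 on the forward strand. The atpB coding region runs into atpE over 4 bases, in capitals, within ChrC:52640-52683 on the reverse strand. Between rpoB and rpoC1 lie 26 bases, shown in lower case within ChrC:23082-23113 on the reverse strand, between the stop codon of rpoB and the start codon of rpoC1 in capitals. A further 182 bases separate rpoC1 from rpoC2 on the same strand.
psbD-psbC overlap: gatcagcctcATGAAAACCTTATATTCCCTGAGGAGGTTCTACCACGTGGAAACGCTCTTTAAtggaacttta
atpB-atpE overlap: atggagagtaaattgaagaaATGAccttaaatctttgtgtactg
rpoB-rpoC1 junction: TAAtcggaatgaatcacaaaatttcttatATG

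The next sequences belong to genes that overlap no other listed gene. The element upstream of psbA, at ChrC:1530-1559 on the reverse strand, begins 115 bases before the coding start and has letters like those of a bacterial promoter, with both boxes in capitals and 18 bases between them. The motif searched was TTGACA, then 16 to 18 bases of any kind, then TANNNT, on both strands of the 300 bases before each coding start. It was found before 2 of the 87 genes, psbA and ycf1, or 2.3% of these windows. The coding region of rpl32, a protein of the large ribosomal subunit, at ChrC:113449-113607 on the forward strand is shown whole because its transcript had the highest level per length of all plastid genes, with start and stop codons in capitals.
psbA upstream element: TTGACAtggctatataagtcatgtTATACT
rpl32: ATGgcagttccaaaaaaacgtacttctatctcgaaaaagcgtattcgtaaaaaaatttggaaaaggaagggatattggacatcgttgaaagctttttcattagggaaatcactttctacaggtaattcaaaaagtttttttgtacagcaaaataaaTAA

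Plastid genes held 0.0106% of all counts. Of the 87 genes, 68 were listed in every library, 49 had a mean count of 10 or more, and 7 never exceeded 3 counts. The 15 genes with the highest mean counts held 61.0% of the plastid counts. Per length, rpl32 had the highest mean level at 22.8 FPKM (fragments scaled to gene length and library depth), followed by psaJ at 8.99 and psbM at 8.77. These genes are short, at 159, 135 and 105 bases, and their mean counts were 63.8, 20.3 and 13.8. Of the genes with high counts, clpP had 5.29 FPKM and atpB 4.82 FPKM. Both copies of the inverted repeat are in the annotation, and 7 gene pairs there have the same sequence and received the same values, so each pair is 1 measurement entered as 2 genes. Counts of genes below include both copies. The expression filter, which asked for about 10 counts in at least 3 libraries, left 60 of the 87 genes for the test (56 of 80 with each pair taken once), and 7 of these reached the cutoff in at least 2 libraries of no more than 1 time.

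In 3 libraries the organelle counts stood apart. Mitochondrial genome transcripts were at 110 CPM (expected counts scaled to a common library total of 1000000) in dark replicate 3 and 119 in 2 h replicate 3, and 47.8 to 75.8 in the other 16 libraries. Those 2 libraries also had low shares of rpo transcripts, at 8.00% and 10.2% of the plastid counts, beside 14.6% and 16.5% in the other dark libraries and 17.8% and 19.5% in the other 2 h libraries. Replicate 2 at 8 h had 105 plastid CPM, against 176 and 185 in replicates 1 and 3. Results that rest on these libraries are given with and without them, and the part of the mitochondrial counts in any result was not tested.

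The summed level of plastid transcripts was higher late in the light. In the dark it was 111, 83.0 and 81.0 CPM in replicates 1, 2 and 3. It was 83.6, 72.9 and 75.5 at 1 h, then 124, 85.8 and 65.3 at 2 h and 81.4, 107 and 91.5 at 4 h, all overlapping the dark libraries. At 8 h it was 176, 105 and 185, with replicate 2 inside the dark range. At 12 h it was 133, 136 and 116, and all 3 libraries lay above the dark ones. The ratio of the 12 h mean (128 ± 10.7, SD, n = 3) to the dark mean (91.5 ± 16.6) was 1.40. In whole seedlings, a change in the number of cells of a type and a change in RNA per cell cannot be told apart. With plastid FPKM taken as a share of all FPKM, the log2 ratio was 0.17 instead of 0.48, and the groups overlapped. Before division by all FPKM, the plastid sum was 195, 150.2 and 179 FPKM in the dark and 205, 220.4 and 171 FPKM at 12 h, which also overlap. A sum over the genes received no test.

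**Figure D1:**
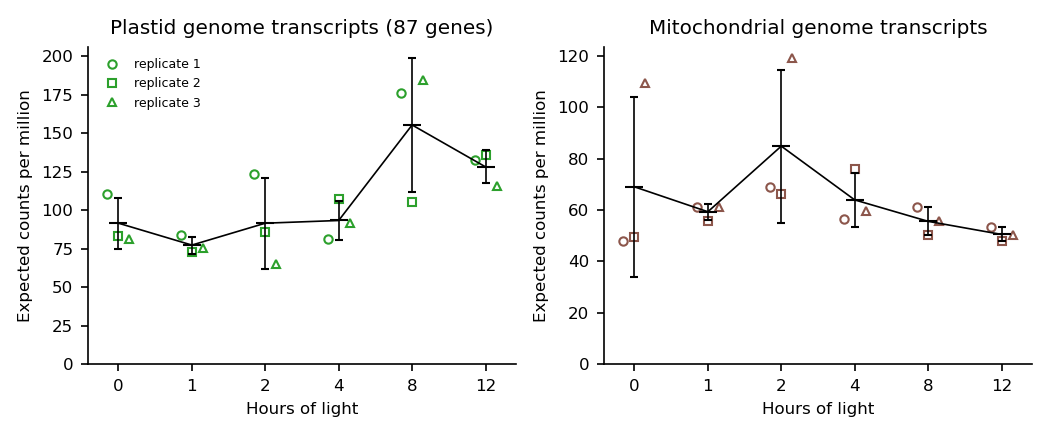
Summed level in CPM of the plastid genes (left) and the mitochondrial genes (right) in each library at 0, 1, 2, 4, 8 and 12 hours of light, spaced equally; bars are the mean and SD of 3 libraries. Plastid counts are highest at 8 h in replicates 1 and 3, and mitochondrial counts are highest in dark replicate 3 and 2 h replicate 3.

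Few plastid genes passed the test in the first 4 hours, and most calls came at 8 and 12 h. A call required an adjusted p under 0.05 together with a difference from the dark of 1 or more on the log2 scale, in either direction. Of the 60 tested plastid genes, none was called higher and 1 lower at 1 h, where 3.66% and 2.09% of all 20569 tested genes were called higher and lower. At 2 h none was called higher and 3 lower, beside 13.9% and 6.46% of all tested genes. At 4 h 2 were called higher and 2 lower, beside 11.0% and 7.51%. At 8 h 14 were called higher and none lower, beside 13.6% and 9.0%. At 12 h 10 were called higher and 1 lower, beside 13.1% and 9.19%. With each repeat pair taken once, 2 were called lower at 2 h, 13 higher at 8 h and 9 higher at 12 h. The median log2 fold change of the tested plastid genes was 0.56 at 8 h and 0.26 at 12 h, against 0.0058 and -0.01 for all tested genes. At the 3 earlier times it was negative, -0.19, -0.08 and -0.29 in order of time, against -0.06, 0.10 and -0.0049 for all tested genes.

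The counts of calls depend on single libraries. At 12 h the count of 11 became 6 without replicate 2 at 12 h and 7 without replicate 3 at 12 h. At 8 h the count of 14 lay between 11 and 21, the highest without replicate 2 at 8 h. Leaving out dark replicate 3 and 2 h replicate 3 together gave 14 calls at 8 h and 10 calls at 12 h. The F test for any difference among the times was passed by 25 of the 60 genes (23 of 56 with each pair taken once), beside 75.0% of all tested genes, and 15 passed without replicate 1 at 8 h.

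Between neighbouring times, the step with the most plastid calls was that from 4 to 8 h. There 7 genes were called higher and none lower, beside 1.9% and 1.67% of all tested genes. They were psbD, psbC, petD, ndhD, rps14, rps18 and matK, the last (the plastid intron maturase) named after its values were seen. This count became 17 without replicate 2 at 8 h, 12 without dark replicate 3, 3 without replicate 2 or 3 at 4 h, and 1 without replicate 1 at 4 h, replicate 1 at 8 h or replicate 3 at 8 h. From 1 to 2 h 1 gene was called higher (ndhF) and 3 lower (rpl32 and, named after their values were seen, psaJ and psbM), beside 15.7% and 5.66%. From 2 to 4 h rpl32 was the 1 gene called higher and none was called lower, beside 2.04% and 7.73%. From 8 to 12 h no plastid gene was called by edgeR or DESeq2, beside 0.0% of all tested genes in each direction, and 10 plastid genes had an unadjusted p under 0.05 in edgeR.

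**Figure D2:**
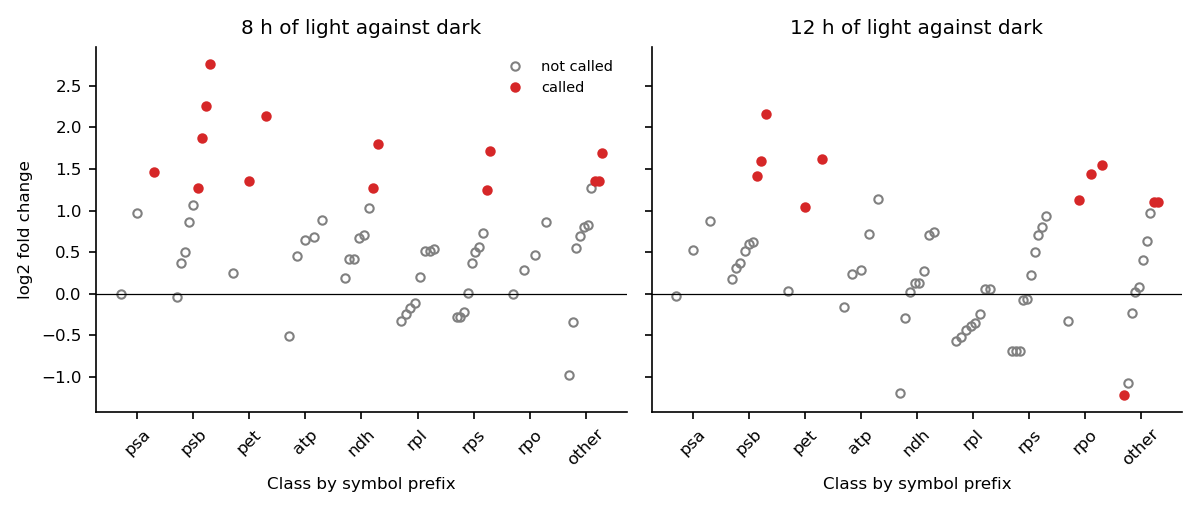
The log2 fold change of each of the 60 tested plastid genes at 8 h (left) and 12 h (right) of light against the dark, by symbol class; filled points were called. At 8 h psbC stands highest at 2.76, and at 12 h 3 of 4 rpo genes are called.

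Summed over the psb genes, photosystem II transcripts held a larger share of the plastid counts in light. The psb genes held 13.9% ± 2.28 (SD, n = 3) of the plastid counts in the dark, 20.4% ± 1.62 at 4 h, 26.2% ± 1.64 at 8 h and 21.9% ± 1.52 at 12 h. From 1 h on, every light library had a higher psb share than every dark library. Replicate 2 at 8 h, with its low plastid total, was no exception, since the 3 shares at 8 h lay between 24.8% and 28.0%. At 2 h the lowest psb share was 15.34%, close to the highest in the dark, 15.26%. In CPM, the psb class stood at 12.9 ± 3.79 before light and overlapped the dark at 1 h (12.4 ± 1.11) and 2 h (14.6 ± 4.63). It reached 40.9 ± 12.9 at 8 h, with 28.0 ± 1.12 at 12 h. Without the genes with mostly fractional counts, among them psbD and psbC, the log2 ratio of the class at 12 h was 0.68 instead of 1.12. Of the 9 tested psb genes, 4 were called higher at 8 h and 3 at 12 h, and not every member rose in share. Named after their values were seen, psbE held 0.71% of the plastid counts in the dark and 0.56% at 12 h, and psbK 0.86% and 0.79%. Both overlapped the dark.

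The psbC gene (ATCG00280, ChrC:33720-35141) encodes CP43, an inner antenna protein of photosystem II. Its counts in replicates 1, 2 and 3 were 63, 33 and 37 in the dark, 66.6, 46.6 and 55.7 at 1 h, and 130, 79.5 and 72.6 at 2 h. They were 97, 125 and 110 at 4 h, 363, 191 and 291 at 8 h, and 198, 188 and 194 at 12 h. Every library from 2 h on lay above all dark libraries, and replicates 1 and 3 at 8 h lay above all 12 h libraries. The log2 fold change against the dark was 1.29 (SE 0.29, adjusted p = 0.00199) at 4 h, 2.76 (SE 0.29, adjusted p = 2e-06) at 8 h and 2.16 (SE 0.29, adjusted p = 2.2e-05) at 12 h. At 2 h it was 0.999 (adjusted p = 0.0107), just under the minimum size for a call.

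Its neighbour psbD (ATCG00270, ChrC:32711-33772) encodes D2, a reaction centre protein of photosystem II. Its counts were 46, 26 and 28 in the dark, 185, 94 and 168 at 8 h, and 101, 105 and 90 at 12 h. All libraries at 8 and 12 h lay above the dark ones, by a log2 fold change of 2.26 (SE 0.37, adjusted p = 0.000153) at 8 h and 1.60 (SE 0.37, adjusted p = 0.00255) at 12 h. Counts of both genes were fractional in 10 libraries, so the division of reads across their shared bases is uncertain. The psbA gene (ATCG00020, ChrC:383-1444), which encodes the D1 reaction centre protein and carries the upstream element shown above, had counts of 52, 19 and 62 in the dark. It had 70, 103 and 46 at 4 h, overlapping the dark. The counts of 180, 94 and 170 at 8 h and 126, 110 and 105 at 12 h were above it. Against the dark, psbA was higher by 1.87 on the log2 scale (SE 0.38, adjusted p = 0.000889) at 8 h and by 1.42 (SE 0.38, adjusted p = 0.00646) at 12 h. The calls of psbA, psbC and psbD at 8 and 12 h held under all 25 alternative settings tried for each.

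The psbB gene (ATCG00680, ChrC:72371-73897) encodes CP47, the other inner antenna protein. Its counts were 110, 59 and 60 in the dark, 67, 79 and 73 at 1 h, and 89, 66 and 45 at 2 h. They were 97, 127 and 94 at 4 h, 217, 117 and 182 at 8 h, and 109, 107 and 129 at 12 h. Only the libraries at 8 h were all above the dark, since dark replicate 1 was level with or above 2 of the 12 h libraries. Its log2 fold change was 1.27 (SE 0.30, adjusted p = 0.00246) at 8 h and 0.63 (SE 0.30, adjusted p = 0.0937) at 12 h.

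The photosystem I reaction centre genes psaA and psaB lie next to each other on the reverse strand. At 8 h psaB was called higher, and psaA was not called at any time. For psaB (ATCG00340, ChrC:37375-39579) the counts were 114, 55 and 35 in the dark, 60, 51 and 42 at 1 h, and 112, 65 and 60 at 2 h. They were 91, 98 and 91 at 4 h, 227, 111 and 191 at 8 h, and 108, 140 and 118 at 12 h. Dark replicate 1 lay above replicate 2 at 8 h and replicate 1 at 12 h, so both times overlapped the dark. Its log2 fold change was 1.46 (SE 0.38, adjusted p = 0.00478) at 8 h, a call, and 0.87 (SE 0.37, adjusted p = 0.0683) at 12 h.

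For psaA (ATCG00350, ChrC:39605-41857) the counts were 104, 46 and 43 in the dark, 66, 49 and 47 at 1 h, and 100, 53 and 54 at 2 h. They were 65, 90 and 66 at 4 h, 130, 71 and 151 at 8 h, and 91, 100 and 82 at 12 h. Every light time overlapped the dark. Its log2 fold change of 0.97 (SE 0.37, adjusted p = 0.0387) at 8 h fell short of the minimum size, and at 12 h it was 0.53 (adjusted p = 0.249). Without dark replicate 1, psaA had a log2 fold change of 1.06 and psaB of 1.45 at 12 h. The psa class held 7.48% ± 1.75 of the plastid counts in the dark and 8.20% ± 0.697 at 12 h.

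Of the cytochrome b6f genes, petB (ATCG00720, ChrC:74841-76292, cytochrome b6) and petD (ATCG00730, ChrC:76481-77672, subunit IV) rose, and petA (cytochrome f) did not pass the test at any time. The petB counts were 14, 13 and 8 in the dark, 63, 32 and 51 at 8 h and 27, 47 and 32 at 12 h, with no overlap. Against the dark, petB was higher by 2.14 on the log2 scale (SE 0.44, adjusted p = 0.000995) at 8 h and 1.62 (SE 0.44, adjusted p = 0.00755) at 12 h. For petD the counts were 24, 14 and 11 in the dark, 46, 32 and 40 at 8 h and 31, 33 and 35 at 12 h, again with no overlap. For petD the log2 fold change was 1.35 (adjusted p = 0.00539) at 8 h and 1.04 (adjusted p = 0.0251) at 12 h. At 12 h petD passed the adjusted p threshold in 20 of 25 alternatives, and without dark replicate 3 its value was 0.79 (adjusted p = 0.0859). The petA counts, 30, 33 and 21 in the dark and 34, 24 and 27 at 12 h, gave a log2 fold change of 0.03 (adjusted p = 0.955). Both petB and petD lie downstream of psbB on the same strand.

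None of the ATP synthase genes was called at any time against the dark. For atpB (ATCG00480, ChrC:52660-54156, the beta subunit) the counts were 176, 126 and 88 in the dark, 140, 129 and 114 at 1 h, and 200, 133 and 73 at 2 h. They were 152, 161 and 162 at 4 h, 250, 184 and 218 at 8 h, and 202, 217 and 177 at 12 h. All libraries at 8 h were above the dark ones, and at 12 h the lowest library was level with dark replicate 1. The difference from the dark was 0.83 on the log2 scale (SE 0.30, adjusted p = 0.0332) at 8 h and 0.63 (SE 0.30, adjusted p = 0.0960) at 12 h. Its neighbour atpE (the epsilon subunit), which shares the 4 bases shown above, had log2 fold changes of 0.89 (adjusted p = 0.0275) and 0.72 (adjusted p = 0.0697) at these times.

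For atpA (ATCG00120, ChrC:9938-11461, the alpha subunit) the counts were 119, 85 and 72 in the dark, 67, 74 and 59 at 1 h, and 134, 82 and 65 at 2 h. They were 57, 88 and 76 at 4 h, 167, 86 and 151 at 8 h, and 108, 124 and 99 at 12 h. Every time overlapped the dark, and the log2 fold change at 12 h was 0.29 (SE 0.30, adjusted p = 0.458).

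The rbcL gene (ATCG00490, ChrC:54958-56397), which encodes the large subunit of Rubisco, was called at 4 h, earlier than psbA, psbD or the pet genes. Its counts were 66, 55 and 45.6 in the dark, 71, 48.8 and 39 at 1 h, and 118, 61 and 88.4 at 2 h. They were 125, 205 and 135 at 4 h, 188, 144 and 176 at 8 h, and 104, 113 and 103 at 12 h. From 4 h on all libraries lay above the dark ones. On the log2 scale the difference was 1.44 (SE 0.28, adjusted p = 0.000663) at 4 h, 1.70 (SE 0.28, adjusted p = 0.00015) at 8 h and 0.97 (SE 0.28, adjusted p = 0.0105) at 12 h, the last just under the minimum size. Its counts were fractional in 11 libraries, so some of its reads were divided with other loci. Whether the time of its rise differs from that of psbA was not tested.

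**Figure D3:**
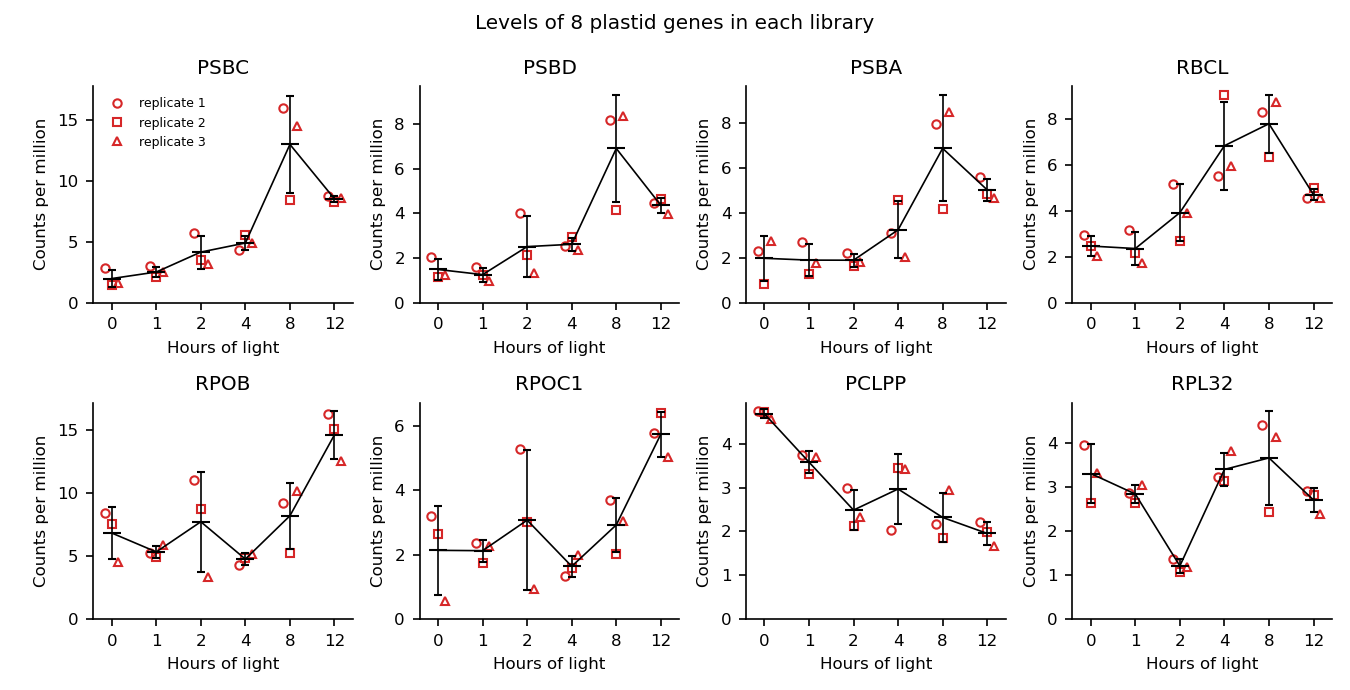
Level in CPM of 8 plastid genes in each library at 6 times of light, spaced equally (PCLPP is clpP); bars are the mean and SD of 3 libraries. Levels of psbC, psbD and psbA are highest at 8 h, rpoB and rpoC1 are highest at 12 h, clpP is lower at 12 h than in the dark, and rpl32 is low at 2 h in all 3 libraries.

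Of the 4 genes of the plastid-encoded RNA polymerase, rpoB, rpoC1 and rpoC2 had their highest mean counts at 12 h, and rpoA did not. The rpo class held 20.6% ± 1.52 of the plastid counts at 12 h, against 13.0% ± 4.45 in the dark and 9.92% to 10.2% in the 8 h libraries. Its 4 genes encode the alpha (rpoA), beta (rpoB), beta prime (rpoC1) and beta double prime (rpoC2) subunits. The rpoB gene (ATCG00190, ChrC:23111-26329) had the highest mean count of all plastid genes. Its counts were 189, 169 and 102 in the dark, 117, 110 and 131 at 1 h, and 251, 197 and 76 at 2 h. They were 96, 110 and 116 at 4 h, 208, 118 and 204 at 8 h, and 368, 342 and 284 at 12 h. The 12 h libraries lay above all other 15 libraries. At 12 h the log2 fold change of rpoB was 1.12 (SE 0.35, adjusted p = 0.0158), and at 8 h it was 0.29 (adjusted p = 0.519).

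The genes downstream of rpoB, rpoC1 and then rpoC2, were also called higher at 12 h. For rpoC1 (ATCG00180, ChrC:20251-23084) the counts were 72, 59 and 13 in the dark, 84, 46 and 61 at 8 h, and 131, 146 and 114 at 12 h. For rpoC2 (ATCG00170, ChrC:15938-20068) they were 62, 45 and 11 in the dark, 75, 49 and 80 at 8 h, and 134, 124 and 87 at 12 h. Both had every 12 h library above the dark and their lowest dark value in replicate 3. At 12 h the log2 fold change was 1.44 (SE 0.54, adjusted p = 0.0395) for rpoC1 and 1.55 (SE 0.52, adjusted p = 0.0231) for rpoC2. Without dark replicate 3, the library with high mitochondrial counts, the values were 0.87 for rpoB (adjusted p = 0.0544), 0.98 for rpoC1 (adjusted p = 0.0939) and 1.09 for rpoC2 (adjusted p = 0.0511), and none was called. The calls of rpoC1 and rpoC2 were also lost without replicate 1 or 2 at 12 h, and that of rpoC1 without replicate 3 at 12 h.

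The rpoA gene (ATCG00740, ChrC:77901-78890) lies elsewhere, beside the ribosomal protein genes, and is named here after its values were seen. Its counts were 41, 33 and 20 in the dark and 29, 30 and 15 at 12 h, which overlap. Its log2 fold change at 12 h was -0.33 (SE 0.38, adjusted p = 0.497), beside 1.12 to 1.55 for the other rpo genes. The difference between rpoA and the others was not tested.

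Genes of the NADH dehydrogenase-like complex, which carries electrons around photosystem I, showed few calls at low counts. The ndhF gene (ATCG01010, ChrC:110398-112638) fell at 1 h, with counts of 12, 9 and 10 in the dark and 2, 2 and 4 at 1 h. The groups did not overlap, and the log2 fold change was -1.86 (SE 0.55, adjusted p = 0.0377). This call was lost in 12 of 25 alternatives, among them each that left out a dark or 1 h library. At 8 h ndhA and, named after its values were seen, ndhH were called higher. For ndhH the counts were 2, 8 and 3 in the dark and 12, 6 and 25 at 8 h, which overlap. The ndhA counts were 18, 8 and 6 in the dark and 23, 12 and 37 at 8 h, which overlap, with a log2 fold change of 1.27 (adjusted p = 0.0434) that lost its call in 14 of 25 alternatives. The ndhD counts of 41, 42 and 44 in the dark and 82, 41 and 70.0 at 8 h also overlapped, with a log2 fold change of 0.70 (adjusted p = 0.0490), under the minimum size. The ndh class held 5.50% ± 0.487 of the plastid counts in the dark and 3.81% ± 0.146 at 12 h, when every library was below the dark ones. Its level in CPM overlapped the dark, at 4.99 ± 0.556 in the dark and 4.88 ± 0.298 at 12 h.

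Ribosomal protein transcripts held a smaller share of the plastid counts at 12 h. The rpl class held 17.1% ± 1.68 in the dark and 10.9% ± 0.762 at 12 h, and the rps class 9.62% ± 2.61 and 5.52% ± 0.0816, with every 12 h library below every dark library in both. Their levels in CPM differed less, at 15.7 ± 3.09 and 14.0 ± 2.08 for rpl and at 8.57 ± 1.27 and 7.07 ± 0.527 for rps. In CPM rpl overlapped the dark, while the highest rps level at 12 h (7.51) lay below the lowest in the dark (7.72). No rpl or rps gene was called at 12 h.

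**Figure D4:**
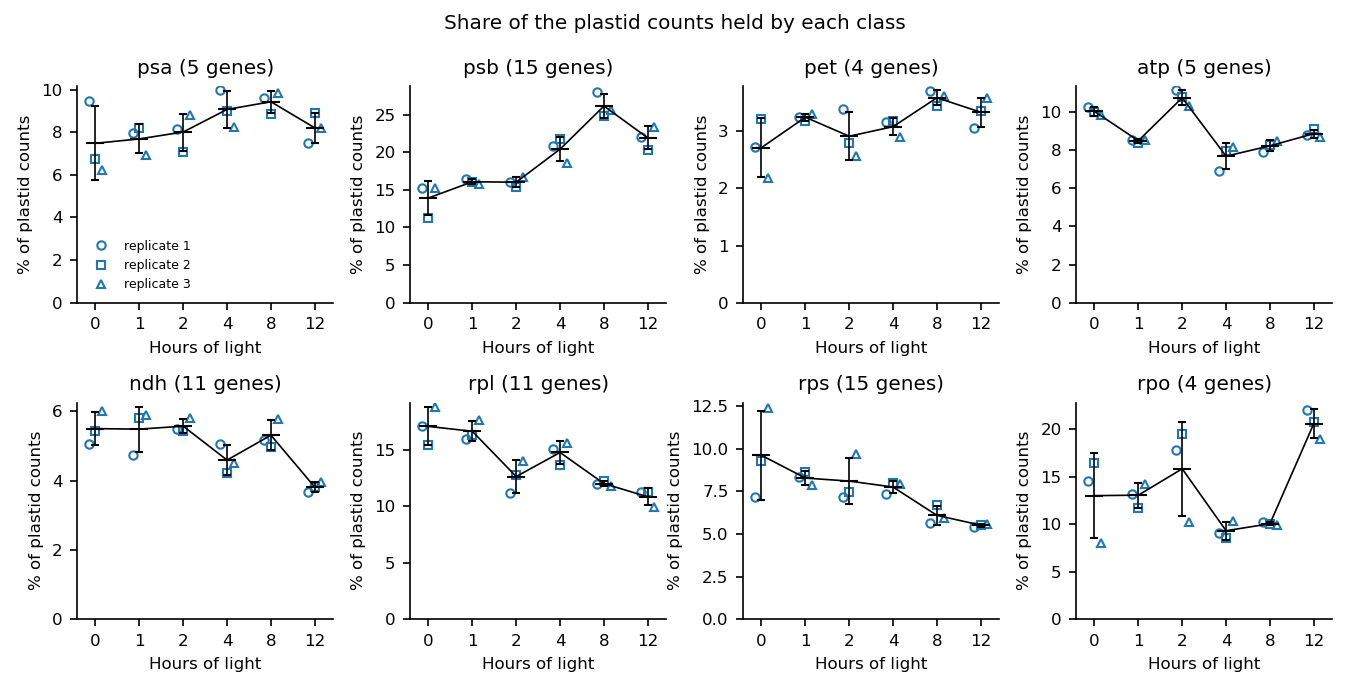
Share of the plastid counts held by each of 8 symbol classes in each library at 6 times of light, spaced equally; bars are the mean and SD of 3 libraries. The psb share is highest at 8 h, the rpo share at 12 h, and the rpl and rps shares are lower at 12 h than in the dark.

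The rpl32 transcript, whose coding sequence is shown above, was low at 2 h alone. Its counts were 89, 59 and 75 in the dark, 64, 59 and 68 at 1 h, and 31, 24 and 27 at 2 h. They were 73, 71 and 86 at 4 h, 100, 55 and 83 at 8 h, and 66, 64 and 54 at 12 h. The 3 libraries at 2 h lay below all other 15, while those of the other times overlapped the dark. Against the dark the log2 fold change was -1.53 (SE 0.23, adjusted p = 7.1e-05) at 2 h and 0.03 (SE 0.21, adjusted p = 0.932) at 4 h. Between 2 and 4 h rpl32 rose by 1.56 on the log2 scale (SE 0.23, adjusted p = 0.000795). The call at 2 h held in all 25 alternatives, with values from -1.65 to -1.38. The rps7 pair (small subunit, 1 measurement) was also called lower at 2 h, with counts of 21, 18 and 24.5 in the dark and 11.5, 5.5 and 8.5 at 2 h and a log2 fold change of -1.35 (SE 0.37, adjusted p = 0.0069).

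Other ribosomal protein genes were called in either direction. The rps14 counts were 8, 6 and 7 in the dark and 23, 20 and 22 at 8 h, free of overlap, with a log2 fold change of 1.71 (SE 0.30, adjusted p = 0.000247). The rps18 counts were 4, 10 and 6 in the dark and 16, 9 and 20 at 8 h, which overlap, with a log2 fold change of 1.25 (adjusted p = 0.0323). It passed the expression filter on replicates 1 and 3 at 8 h and dark replicate 2, so without its high 8 h values it would not have been tested, and its calls at 8 h and from 4 to 8 h are given as a description. The rpl2 pair, the most abundant of the class, had a log2 fold change of 0.06 (adjusted p = 0.862) at 12 h. For rps3 the value was -0.68 (adjusted p = 0.0882) and for rps19 -0.08 (adjusted p = 0.849). At 4 h rpl33, named after its values were seen, was called lower, with counts of 14, 6 and 9 in the dark and 5, 3 and 4 at 4 h and a log2 fold change of -1.26 (adjusted p = 0.0363). It passed the filter on 3 libraries, dark replicate 1 among them. Without that high dark value rpl33 would not have been tested, and its call is also given as a description.

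The clpP gene (ATCG00670, ChrC:69910-71882) encodes a catalytic subunit of the plastid Clp protease and was the 1 plastid gene called lower at 12 h. Its counts were 107, 106 and 103 in the dark, 84, 74 and 83 at 1 h, and 68, 48 and 53 at 2 h. They were 46, 78 and 77 at 4 h, 49, 42 and 59 at 8 h, and 50, 45 and 38 at 12 h. All 15 light libraries lay below the 3 dark ones. In clpP the log2 fold change was -0.999 (SE 0.22, adjusted p = 0.00198) at 2 h, -0.68 (SE 0.22, adjusted p = 0.0208) at 4 h, -0.97 (SE 0.22, adjusted p = 0.00231) at 8 h and -1.22 (SE 0.23, adjusted p = 0.000426) at 12 h. The 2 h and 8 h values were just under the minimum size, and the 12 h call held in all 25 alternatives. Its share of the plastid counts was 5.21% ± 0.793 in the dark and 1.52% ± 0.125 at 12 h.

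Among the remaining genes, accD, which encodes a subunit of acetyl-CoA carboxylase and is named after its values were seen, was called lower at 4 h. Its counts were 25, 17 and 12 in the dark and 6, 4 and 9 at 4 h, and its log2 fold change was -1.52 (SE 0.52, adjusted p = 0.0273). The ycf2 pair, 1 measurement of a large open reading frame, had counts of 6.5, 6 and 7 in the dark, 21, 9.27 and 16.5 at 8 h and 12, 14.5 and 14.5 at 12 h, all above the dark. For ycf2 the log2 fold change was 1.36 (adjusted p = 0.00519) at 8 h and 1.10 (adjusted p = 0.0194) at 12 h, and the 12 h call was lost in 4 alternatives, among them DESeq2. The pair reached the cutoff of the expression filter in 7 libraries, most of them at 8 and 12 h. Without its high values at both of these times ycf2 would not have been tested, and its calls are given as a description.

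Most nuclear partners of these genes were called higher at 12 h, and none of those listed was called lower, beside 13.1% and 9.19% of all tested genes. At 12 h 5 of 6 plastid sigma factor genes were called higher, from SIG4 (0.98, not called) to SIG5 (4.66), and SIG5 stood at 5.12 already at 1 h. Of 12 genes of proteins associated with the plastid-encoded polymerase, 11 were called higher, from PAP1 (0.90, not called) to PAP6 (2.92). Of the 2 phage-type polymerase genes, RPOTP had 2.40 and RPOTMP 0.996, the latter just under the minimum size. Of 12 nuclear genes for plastid RNA processing and stability, 10 were called higher, from RNR1 (0.39, not called) to CSP41B (4.61). The plastid classes in the following comparisons are those by symbol prefix. For the complexes made of plastid and nuclear subunits, all 11 nuclear psb genes were called higher at 12 h with a median log2 fold change of 2.83. The median was 0.60 for the 9 tested plastid psb genes, ndhK among them. All 4 RBCS genes were called higher with a median of 4.21, beside 0.97 for rbcL. Among the nuclear psa genes 11 of 12 were called (median 2.30), beside none of 3 tested plastid psa genes (median 0.53). All 3 nuclear atp genes were called (median 2.38), beside none of 5 plastid genes with the atp prefix (median 0.29). That class leaves out atpB, which was not called either. Both nuclear pet genes were called (median 2.32), beside 2 of 3 tested plastid pet genes (median 1.04). The differences between nuclear and plastid medians were not tested. The 2 kinds of gene are also measured unlike each other, since a polyA library holds only a small part of the plastid RNA.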

How the data were processed

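PolyA RNA was sequenced from 18 libraries of dark-grown seedlings at 6 times of light. The deposited gene tables give, per the file headers, an expected count and an FPKM value for each gene, the latter scaled by the authors to length and depth. The submitters' processing notes name RSEM, Bowtie2 and HISAT2. Their versions and roles, the strand setting and the genome build are not given in the sources used here. A gene missing from a table was set to 0. Rounded expected counts were tested with edgeR 4.0.16 in R 4.3.3: TMM scaling, filterByExpr, 1 quasi-likelihood model over 18 libraries and 20569 genes, and Benjamini-Hochberg adjustment over all of them. Standard errors were taken as the log2 fold change divided by the root of the test's F value. Alternatives were DESeq2 1.42.0, other scalings, no filter on low counts, no minimum fold change, a replicate block and each library left out. Class sums were also formed by gene function in place of symbol prefix, added after the data were seen. The procedure was tested on simulated counts. Class sums and shares received no test. Named genes were the 15 with the highest mean counts, up to 20 genes called against the dark with the lowest F test p, and the highest 2 of each class. The members and gene lists were chosen with earlier results of these data known. Counting error limits genes under about 10 counts. No libraries held identical values. The labels do not say whether the replicate numbers pair the samples, and the main test used no replicate block. Over all tested genes, same-numbered libraries deviated together most clearly at 2 h and 0 h (correlations 0.12, 0.30 and 0.29). Over the plastid genes alone the correlations at 2 h and 0 h were higher, at 0.48, 0.23 and 0.60 in replicates 1, 2 and 3. Same-numbered libraries also deviated together over the plastid genes at 8 and 12 h (0.16, 0.26 and 0.21).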

Additional observations from a re-analysis of the deposited data

How the results depend on the processing

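The calls of psbA, psbC and psbD, rbcL at 4 and 8 h, rpl32 at 2 h and clpP at 12 h kept their direction and side of the threshold in every alternative. With DESeq2 the counts of plastid genes called were 0 at 1 h and 11 from 4 to 8 h. With no filter on low counts they were 0 at 1 h and 2 from 1 to 2 h. Without a minimum fold change they were 5 at 2 h, 8 at 4 h and 2 from 2 to 4 h. Without dark replicate 3 and 2 h replicate 3, chosen after seeing the data, they were 5 at 2 h, 5 from 2 to 4 h and 13 from 4 to 8 h. With the replicate block the count from 1 to 2 h was 1 instead of 4. At 2 h, where same-numbered libraries deviated together, it was 4 instead of 3, and whether the numbers pair the samples was not tested. The block moved no other count by over 1.5 times. Leaving out 1 library at a time gave 0 to 1 at 1 h, 3 to 5 at 2 h, 2 to 4 at 4 h, 11 to 21 at 8 h, 6 to 14 at 12 h, 2 to 5 from 1 to 2 h, 1 to 4 from 2 to 4 h, 1 to 17 from 4 to 8 h, 0 from 8 to 12 h, and 15 to 33 in the F test.

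With summed FPKM taken as a share of all FPKM, the log2 ratio at 12 h moved to 0.17 for all plastid genes (0.48 as reported), 0.59 for psb (1.12) and 0.20 for ndh (-0.03). As a share of the plastid counts, a scale added after seeing the data, it was 0.65 for psb, -0.53 for ndh, -0.18 for atp (0.30), 0.30 for pet (0.77), -0.66 for rpl (-0.17) and -0.80 for rps (-0.28). With classes by function, which put atpB in the atp class, the atp share was 16.3% ± 1.40 in the dark and 15.7% ± 0.374 at 12 h, which overlap. Without mostly fractional genes psb was 0.68, and without its most abundant gene ndh was 0.12. Leaving out 1 library gave 0.40 to 0.64 for all plastid genes, 0.39 to 0.98 for psa, 0.94 to 1.37 for psb, -0.10 to 0.06 for ndh, 0.21 to 0.48 for atp, 0.58 to 0.94 for pet, -0.29 to -0.01 for rpl, -0.35 to -0.15 for rps and 0.83 to 1.40 for rpo. Reversals were seen in genes near 0 at 12 h that were not called: petA (-0.18, -0.17, -0.09 and -0.0019), both rpl2 copies (-0.069, -0.060, -0.020 and -0.0053), rps19 (0.13 and 0.14) and ndhA (-0.046 and -0.036). With 1 library left out they lay between -0.17 and 0.22 for petA, -0.060 and 0.29 for rpl2, -0.20 and 0.14 for rps19, and -0.036 and 0.87 for ndhA. The cause of these changes was not tested. Depth limits genes under about 10 counts.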
